A study of Mus musculus with 27 samples.

Results

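The anti-Rtl1 microRNAs are the 10 mature strands of 5 hairpins, miR-431, miR-433, miR-127, miR-434 and miR-136, that lie antisense to the gene Rtl1 on mouse chromosome 12. They were chosen by name, and all 10 were found among the 2035 microRNA loci of the deposited tables, each at 1 locus. They were measured in CJ7 cells, a line of mouse embryonic stem (ES) cells kept in serum and leukemia inhibitory factor (LIF), in 4 genotypes: Eed-/-, Ezh2-/-, Jarid2-/- and wild-type. The labels give no treatment for any group. Small RNA of 18 to 40 nucleotides was sequenced, and each genotype had 1 column of counts, although the labels list 2 small RNA samples for Eed-/-, Ezh2-/- and wild-type and 1 for Jarid2-/-. Whether a column pools samples, and whether a mutant line is a single clone, is not given in the sources used here.

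PRC2, a Polycomb complex, methylates lysine 27 of histone H3 at silent genes. Ezh2 is its catalytic subunit, Eed holds the complex together and binds the methylated histone, and Jarid2 is an accessory protein that aids its recruitment. The locus named in the series title, Gtl2-Rian-Mirg, is imprinted: its noncoding RNAs and microRNAs come from the maternal chromosome, while Rtl1, a gene derived from a retrotransposon, is expressed from the paternal one. Because the anti-Rtl1 microRNAs are transcribed from the strand opposite Rtl1, they pair with its messenger RNA along their whole length and are known to direct its cleavage. Rtl1 protein is needed for the fetal capillaries of the placenta, and miR-127 is known in mice for its part in that tissue. MiR-431 is known in mouse muscle satellite cells, where it represses Pax7. The comparisons address how loss of each PRC2 component bears on the microRNAs of this imprinted transcript.

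The mature sequences are shown because they define the members and show how little the members share. Each is written 5′ to 3′ from the deposited tables, where names begin with mmu- for mouse, with the seed (bases 2 to 8, which set most of the pairing with targets) in capitals.
mmu-miR-431-5p: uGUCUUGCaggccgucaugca
mmu-miR-431-3p: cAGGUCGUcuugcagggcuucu
mmu-miR-433-5p: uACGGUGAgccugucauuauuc
mmu-miR-433-3p: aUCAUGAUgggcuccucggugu
mmu-miR-127-5p: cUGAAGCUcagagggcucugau
mmu-miR-127-3p: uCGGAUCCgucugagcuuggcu
mmu-miR-434-5p: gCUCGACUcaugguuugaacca
mmu-miR-434-3p: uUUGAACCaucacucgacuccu
mmu-miR-136-5p: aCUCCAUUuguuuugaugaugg
mmu-miR-136-3p: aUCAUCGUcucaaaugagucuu

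The 10 members have 10 different seeds, and 0 of these seeds is the seed (bases 2 to 8) of another mature microRNA of the tables. They are therefore not a seed family and are grouped by their position. All 10 sequences are the same in RefSeq, and in its GRCm38.p6 assembly all 5 hairpins lie inside the bounds of the gene Rtl1. In the deposited tables (mm9, plus strand) they run from chr12:110828669 to chr12:110833597, a span of 4929 bp. The order is miR-431, miR-433, miR-127, miR-434 and miR-136, with gaps of 0.744 to 1.62 kb between neighbouring hairpins. GC content ranged from 36.4% in both strands of miR-136 to 59.1% in miR-431-3p and miR-127-3p, around a median of 52.2% over all mature names.

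Both strands of a hairpin (its 5p and 3p arms) can be loaded into Argonaute, and their relative counts are compared further on. The hairpins of miR-136 and miR-127 are shown because their arm ratios differed most visibly between genotypes or carried the most counts. They are RefSeq sequences (GRCm38.p6, chromosome 12, plus strand) with the mature arms in capitals.
miR-136: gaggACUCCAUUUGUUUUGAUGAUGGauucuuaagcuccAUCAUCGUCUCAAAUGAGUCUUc
miR-127: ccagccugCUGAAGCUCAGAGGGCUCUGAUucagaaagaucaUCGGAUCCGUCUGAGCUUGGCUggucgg

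The arms of miR-136 are separated by 13 bases and those of miR-127 by 12. The longest run of bases that both arms share was 4 in miR-136 and 5 in miR-127, but 10 in miR-431 (gucuugcagg) and 9 in miR-434 (uuugaacca).

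The microRNA counts totalled 42293019 for Eed-/-, 32074712 for Ezh2-/-, 8485806 for Jarid2-/- and 23793733 for wild-type. Levels are given in counts-per-million of these totals (CPM). The most that a count of 0 allows, set at 3 counts, was 0.0709, 0.0935, 0.354 and 0.126 CPM in the same order, so the Jarid2-/- column was the least sensitive. Since every genotype is a single column, the differences described have no replicate check and genotypes were not compared by a test. Ranges in parentheses are exact 95% intervals of counting error (binomial for ratios and shares), except that odds ratios from 300 or more counts have Wald intervals. Reads copied by PCR are not independent molecules, so these ranges are too narrow. A microRNA was called lower at a log2 ratio of -1 or less, computed from CPM + 1, provided that the larger of its 2 counts was 10 or more, and higher at a log2 ratio of 1 or more. The miR-290 cluster, which marks mouse ES cells, made up 44.4%, 45.9%, 38.2% and 39.7% of the counts of Eed-/-, Ezh2-/-, Jarid2-/- and wild-type. The other ES cell markers, miR-302 and miR-367, summed to 15574, 5222, 12785 and 7743 CPM in the same order, so they did not follow the order of the miR-290 cluster. Summed markers of other cell types ranged over the columns from 923 to 5847 CPM for neural, 2869 to 9341 for blood, 414 to 1480 for endodermal and epithelial, 585 to 1673 for mesenchymal and 6.72 to 40.3 for muscle microRNAs, and their part in the results was not tested.

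The anti-Rtl1 microRNAs were lower in all 3 mutants, with Ezh2-/- far below the others. Their summed level was 768 CPM in Eed-/- (32494 counts), 4.89 CPM in Ezh2-/- (157 counts) and 253 CPM in Jarid2-/- (2143 counts), against 5487 CPM in wild-type (130558 counts). This was 7.14-fold lower in Eed-/- (7.06 to 7.23), 1121-fold lower in Ezh2-/- (959 to 1319) and 21.7-fold lower in Jarid2-/- (20.8 to 22.7). Fewer cells with these microRNAs and less of them per cell cannot be told apart in such bulk RNA. The size depended on the scaling: the Eed-/- value was 4.36-fold with the RPM denominators of the authors, and the Ezh2-/- value was 676-fold with TMM factors.

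Of the 10 members, 9 were called lower in Eed-/-, where 15.0% of all tested loci were. In Ezh2-/- all 10 were called lower, against 24.5% of tested loci, and in Jarid2-/- all 10, against 22.8%. Such calls were not particular to the members. Of the 91 other tested plus-strand loci of the imprinted locus, 79 were called lower in Eed-/-, 88 in Ezh2-/- and 86 in Jarid2-/-. No member was called higher, which 17.5%, 4.90% and 16.3% of tested loci were in the same order. The median log2 ratio of the members was -2.86 in Eed-/-, -7.95 in Ezh2-/- and -4.17 in Jarid2-/-. Over all tested loci the medians were 0.08, -0.44 and -0.17. The exception in Eed-/- was miR-136-5p, whose log2 ratio of -0.96 lay just outside the threshold. It was -1.08 with TMM and -1.18 with median-ratio scaling, past the threshold, but -0.25 with the RPM denominators.

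**Figure D1:**
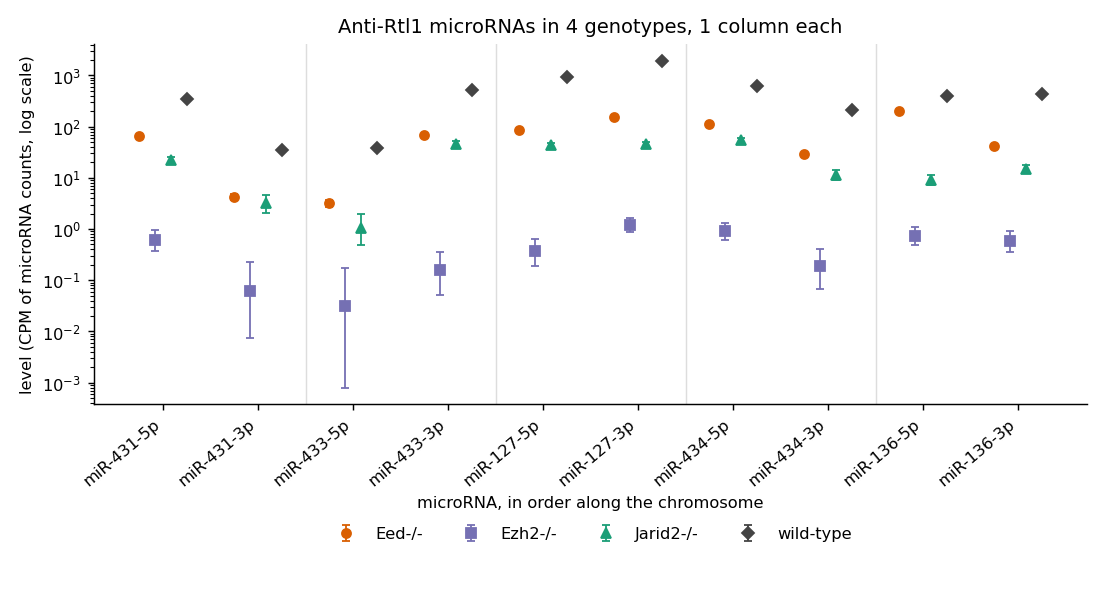
Level of each anti-Rtl1 microRNA in CPM of microRNA counts (log axis), 1 point per genotype column, with bars for exact 95% Poisson intervals. Ezh2-/- is the lowest of the 4 points for every microRNA and wild-type the highest, with miR-136-5p in Eed-/- (203 CPM) the closest to its wild-type level (394 CPM).

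MiR-431 lies first in the row of hairpins and is read mostly from its 5p arm. MiR-431-5p (chr12:110828669-110828689) had 66.7 CPM in Eed-/-, 0.624 in Ezh2-/- and 21.9 in Jarid2-/-, against 346 in wild-type. MiR-431-3p (chr12:110828712-110828733) had 4.26 CPM in Eed-/-, 0.0624 in Ezh2-/- (2 counts) and 3.18 in Jarid2-/-, against 35.6 in wild-type. For the 5p arm the wild-type level stood above all the others, and Eed-/- above Jarid2-/-. For the 3p arm the Eed-/- and Jarid2-/- levels could not be separated, the second being 1.34-fold lower (0.889 to 2.09). With both arms summed, miR-431 was 5.37-fold lower in Eed-/- (5.15 to 5.60), 556-fold lower in Ezh2-/- (367 to 887) and 15.2-fold lower in Jarid2-/- (13.3 to 17.5).

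MiR-433 is read mostly from its 3p arm. MiR-433-3p (chr12:110829991-110830012) had 68.8 CPM in Eed-/-, 0.156 in Ezh2-/- (5 counts) and 46.8 in Jarid2-/-, against 523 in wild-type. The minor strand miR-433-5p (chr12:110829939-110829960) had 3.19, 0.0312 (1 count) and 1.06 CPM in Eed-/-, Ezh2-/- and Jarid2-/-, against 37.7 in wild-type. It was the lowest of the 10 members in each mutant column. Summed over its arms, miR-433 was 7.78-fold lower in Eed-/- (7.48 to 8.10), 2996-fold lower in Ezh2-/- (1376 to 8166, from 6 counts) and 11.7-fold lower in Jarid2-/- (10.6 to 13.0).

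MiR-127 is the most abundant of the 5 hairpins in wild-type cells. MiR-127-3p (chr12:110831098-110831119) had 152 CPM in Eed-/-, 1.22 in Ezh2-/- and 46.3 in Jarid2-/-, against 1955 in wild-type. It ranked 267th, 640th and 343rd among the 2035 loci of the Eed-/-, Ezh2-/- and Jarid2-/- columns and 62nd in wild-type. MiR-127-5p (chr12:110831064-110831085) had 85.9, 0.374 and 42.9 CPM in Eed-/-, Ezh2-/- and Jarid2-/-, against 922 in wild-type. The hairpin was 12.1-fold lower in Eed-/- (11.8 to 12.3), the most of the 5 in that genotype, 1810-fold lower in Ezh2-/- (1376 to 2431) and 32.3-fold lower in Jarid2-/- (30.0 to 34.7).

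MiR-434 is read mostly from its 5p arm. MiR-434-5p (chr12:110832738-110832759) had 113 CPM in Eed-/-, 0.904 in Ezh2-/- and 54.9 in Jarid2-/-, against 632 in wild-type. MiR-434-3p (chr12:110832775-110832796) had 29.2, 0.187 (6 counts) and 11.4 CPM in the mutants in that order, against 212 in wild-type. Both arms thus kept the order wild-type, Eed-/-, Jarid2-/-, Ezh2-/-. The hairpin was 5.93-fold lower in Eed-/- (5.77 to 6.11), 774-fold lower in Ezh2-/- (556 to 1111) and 12.7-fold lower in Jarid2-/- (11.7 to 13.9).

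MiR-136 lies last, and its arms went apart in Eed-/- cells. MiR-136-5p (chr12:110833541-110833562) had 203 CPM in Eed-/-, 0.748 in Ezh2-/- and 9.19 in Jarid2-/-, against 394 in wild-type. MiR-136-3p (chr12:110833576-110833597) had 42.3 CPM in Eed-/-, 0.592 in Ezh2-/- and 14.8 in Jarid2-/-, against 429.7 in wild-type. The arms were near to each other in wild-type, but the 5p arm was 1.94-fold lower in Eed-/- (1.89 to 2.00) and the 3p arm 10.2-fold lower (9.66 to 10.7). In Jarid2-/- the 5p arm was 42.9-fold lower (34.3 to 54.3) and the 3p arm 28.9-fold lower (24.3 to 34.8). The hairpin was 3.36-fold lower in Eed-/- (3.28 to 3.44), 615-fold lower in Ezh2-/- (456 to 850) and 34.3-fold lower in Jarid2-/- (29.9 to 39.5).

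**Figure D2:**
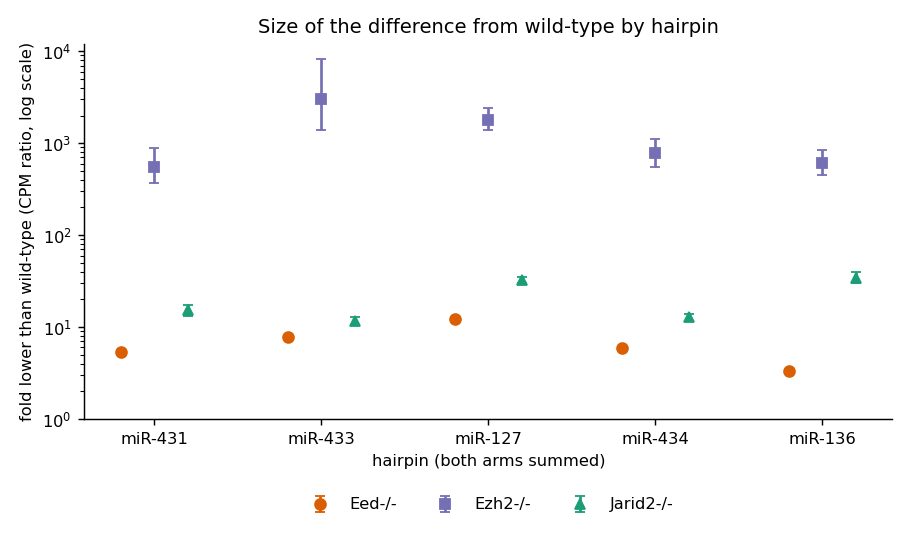
Fold by which each hairpin, both arms summed, was lower than wild-type in each mutant (log axis), with bars for exact 95% intervals. Eed-/- runs from 3.36-fold for miR-136 to 12.1-fold for miR-127, Jarid2-/- from 11.7-fold for miR-433 to 34.3-fold for miR-136, and Ezh2-/- from 556-fold for miR-431 to 2996-fold for miR-433.

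The size of the difference was not uniform over the 5 hairpins, nor did it follow their order along the chromosome. In Eed-/- it spanned 3.59-fold from the least to the most affected hairpin, in Ezh2-/- 5.39-fold and in Jarid2-/- 2.93-fold. MiR-127 stood at or near the top in all 3 mutants. MiR-136 had the smallest difference in Eed-/- but, with miR-127, the largest in Jarid2-/-, where the intervals of these 2 hairpins overlapped. In Ezh2-/- the intervals of miR-431, miR-434 and miR-136 overlapped one another, as did those of miR-433 and miR-127, which lay above them.

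The arm ratio of a hairpin is read within 1 column and does not depend on the scaling between columns. The 5p arm of miR-136 held 82.7% of the hairpin counts in Eed-/- (82.0 to 83.5%), 55.8% in Ezh2-/- (39.9 to 70.9%) and 38.2% in Jarid2-/- (31.5 to 45.3%), against 47.8% in wild-type (47.1 to 48.5%). The Eed-/- share lay far above wild-type and the Jarid2-/- share below it, while the Ezh2-/- interval, from 43 counts, held the wild-type value. The 5p to 3p ratio of miR-136 was 4.79 in Eed-/- and 0.917 in wild-type, an odds ratio of 5.22 (4.93 to 5.54). In Jarid2-/- the odds ratio to wild-type was 0.675 (0.501 to 0.903).

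In Eed-/- the odds ratios of the other 4 hairpins were nearer to 1, while in Jarid2-/- those of miR-433 (0.315), miR-127 (1.964) and miR-434 (1.62) were farther from it than that of miR-136. The 5p share of miR-127 was 36.1% in Eed-/- (35.1 to 37.0%), 23.5% in Ezh2-/- (12.8 to 37.5%) and 48.1% in Jarid2-/- (44.5 to 51.7%), against 32.0% in wild-type (31.7 to 32.4%). Its arms were thus nearly equal in Jarid2-/-, while the 3p arm held 2.12 times the counts of the 5p arm in wild-type. The 5p share of miR-434 was 79.5% in Eed-/- (78.4 to 80.5%), 82.9% in Ezh2-/- (66.4 to 93.4%) and 82.8% in Jarid2-/- (79.4 to 85.8%), against 74.8% in wild-type (74.2 to 75.4%). That of miR-431 was 94.0% in Eed-/- (93.1 to 94.8%), 90.9% in Ezh2-/- (70.8 to 98.9%) and 87.3% in Jarid2-/- (82.1 to 91.5%), against 90.7% in wild-type (90.1 to 91.3%). For miR-433 it was 4.43% in Eed-/- (3.73 to 5.22%), 16.7% in Ezh2-/- (0.421 to 64.1%, from 6 counts) and 2.22% in Jarid2-/- (1.02 to 4.17%), against 6.72% in wild-type (6.30 to 7.16%). By counts, the same arm was the major one in all 4 columns for miR-431, miR-433, miR-127 and miR-434. Only miR-136 changed its major arm between columns. The intervals did not settle the major arm of miR-127 in Jarid2-/-, or of miR-433 and miR-136 in Ezh2-/-.

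Such shifts were common in these columns. Of 274 hairpins with at least 100 counts in both columns, 43.4% had a 5p to 3p ratio at least 2-fold different between Eed-/- and wild-type, and 1 of the 5 anti-Rtl1 hairpins (miR-136) did. By size its log2 shift of 2.38 ranked 46th of the 274. In Jarid2-/- 50.4% of 224 hairpins passed 2-fold, and 1 of the 5 did, miR-433, with a log2 shift of -1.59 that ranked 77th and rested on 9 counts of its 5p arm in Jarid2-/-. The shift of miR-136 in Jarid2-/-, -0.56, ranked 159th of the 224 and was below the median size of 1.01. In Ezh2-/- 0 of the 5 hairpins reached 100 counts, so their shifts were not ranked, while 34.6% of 214 other hairpins passed 2-fold.

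**Figure D3:**
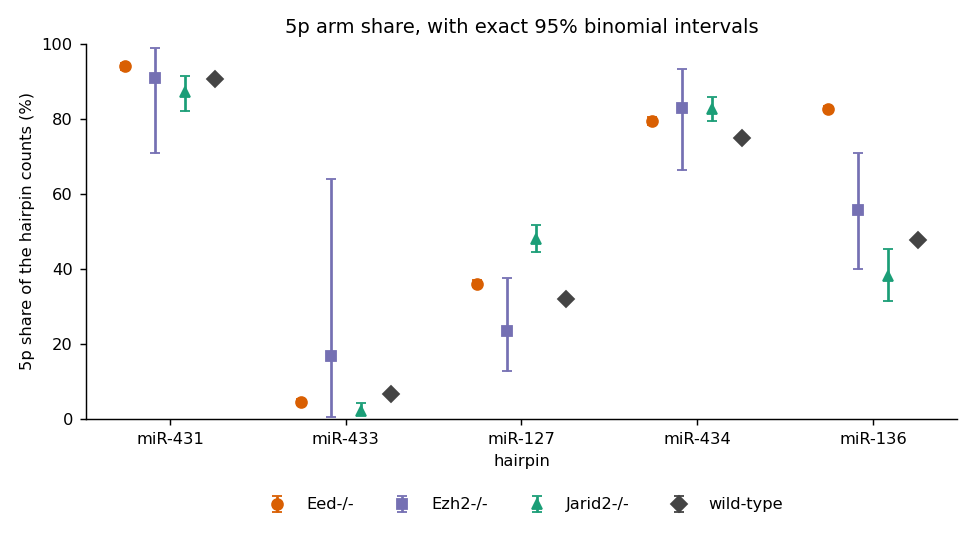
Share of each hairpin's counts that fell on its 5p arm, in percent, for each genotype column, with exact 95% binomial intervals. MiR-136 is spread widest, from 38.2% in Jarid2-/- to 82.7% in Eed-/-, with wild-type at 47.8%, and the wide Ezh2-/- bars show its low counts.

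The makeup of the anti-Rtl1 counts differed between genotypes as well. MiR-127 made up 31.0% of them in Eed-/- (30.5 to 31.5%), 32.5% in Ezh2-/- (25.2 to 40.4%) and 35.3% in Jarid2-/- (33.3 to 37.4%), against 52.4% in wild-type (52.2 to 52.7%), so its share was lower in each mutant beyond counting error. MiR-136 made up 31.9% in Eed-/- (31.4 to 32.4%), 27.4% in Ezh2-/- (20.6 to 35.1%) and 9.52% in Jarid2-/- (8.31 to 10.8%), against 15.0% in wild-type (14.8 to 15.2%). MiR-433 had the opposite pattern in Jarid2-/-, with 9.37%, 3.82% and 18.9% in Eed-/-, Ezh2-/- and Jarid2-/-, against 10.2% in wild-type. MiR-434 held 18.5%, 22.3% and 26.3% in the mutants in that order, against 15.4% in wild-type. MiR-431 held 9.24%, 14.0% and 9.94%, against 6.94% in wild-type.

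**Figure D4:**
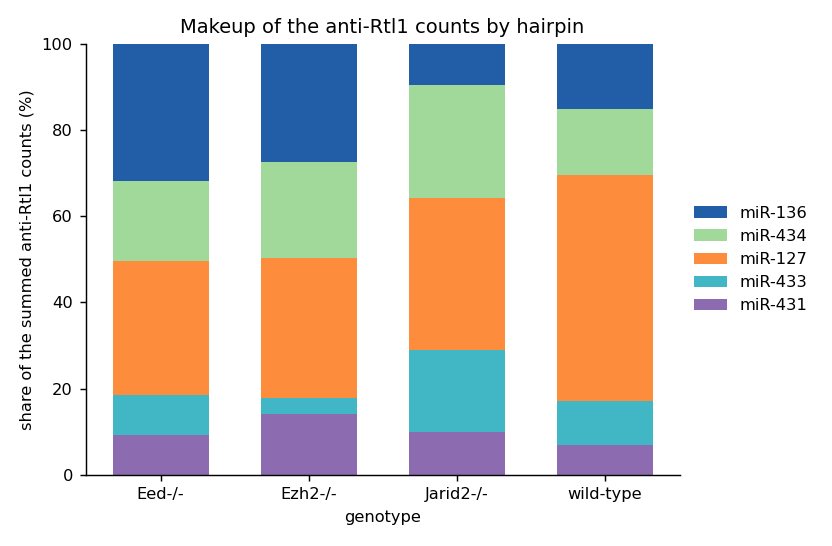
Stacked shares (percent) of the 5 hairpins in the summed anti-Rtl1 counts of each genotype column. MiR-127 takes 31.0 to 35.3% in the mutants and 52.4% in wild-type, and miR-136 takes 31.9% in Eed-/- but 9.52% in Jarid2-/-.

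The order of the members by level differed between the columns too. Counts of different microRNAs also carry differences in ligation and amplification, which the tables do not correct. In Eed-/- the highest was miR-136-5p, followed by miR-127-3p and miR-434-5p, and all neighbours but miR-433-3p and miR-431-5p differed beyond counting error. In Ezh2-/- no neighbours differed, and the 10 members had 1 to 39 counts each. In Jarid2-/- miR-434-5p came first, and miR-433-3p, miR-127-3p and miR-127-5p followed at 46.8, 46.3 and 42.9 CPM without a difference between neighbours beyond counting error. In wild-type the order was miR-127-3p, miR-127-5p, miR-434-5p, miR-433-3p, miR-136-3p, miR-136-5p, miR-431-5p, miR-434-3p, miR-433-5p and miR-431-3p, and only the last pair did not differ beyond counting error. The highest member stood 63.5-fold above the lowest in Eed-/-, 39-fold in Ezh2-/-, 51.8-fold in Jarid2-/- and 55.0-fold in wild-type.

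Between the mutants, Ezh2-/- was 157-fold lower than Eed-/- in the summed level (134 to 185). All 10 of 10 members were called lower, as were 35.7% of tested loci (4.58% were called higher). With TMM or median-ratio scaling the summed value was 86.8-fold or 94.0-fold. Jarid2-/- was 3.04-fold lower than Eed-/- (2.91 to 3.18). Of the 10 members, 7 were called lower and 0 higher, beside 18.9% of tested loci called lower and 7.18% higher. The 3 members not called were miR-431-3p, miR-433-3p and miR-127-5p. Without the added 1 CPM, miR-127-5p was 2.00-fold lower (1.80 to 2.24). The largest difference was that of miR-136-5p, which was 22.1-fold lower in Jarid2-/- than in Eed-/- (17.7 to 27.9). Its partner arm miR-136-3p was 2.85-fold lower (2.38 to 3.44), and the other 8 members ranged from 1.34-fold (miR-431-3p) to 3.29-fold (miR-127-3p) lower. Jarid2-/- was 51.6-fold higher than Ezh2-/- in the summed level (43.9 to 61.1). Here 9 of the 10 members had enough counts to be called and all 9 were higher, as were 33.0% of tested loci (8.92% were lower). The log2 ratio of this sum was 5.69, or 4.93 with TMM and 5.05 with median-ratio scaling. The difference ranged from 12.3-fold for miR-136-5p (7.69 to 20.3) to 300.1-fold for miR-433-3p (127.5 to 929). All comparisons with wild-type share the wild-type column.

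Set against the rest of the imprinted locus, the anti-Rtl1 hairpins held a similar part in each column. They held 10.4% of the plus-strand microRNA counts of the locus in Eed-/- (10.3 to 10.5%), 10.3% in Ezh2-/- (8.83 to 11.95%) and 9.19% in Jarid2-/- (8.83 to 9.57%), against 11.4% in wild-type (11.4 to 11.5%). With all members counted, the Eed-/- and Jarid2-/- shares lay below wild-type beyond counting error, and the Ezh2-/- interval held the wild-type value. On the log2 scale the summed ratio of the members was lower than that of the other 99 plus-strand loci by 0.16 in Eed-/-, 0.17 in Ezh2-/- and 0.35 in Jarid2-/-. No scaling between columns alters these differences, but they rest on miR-127-3p: without it the members were higher than the other loci by 0.16 in Eed-/- and 0.058 in Ezh2-/-, and the difference in Jarid2-/- was -0.0065.

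Of the neighbouring groups, the 12 strands upstream near Gtl2 (miR-770 to miR-665) were 7.69-fold lower in Eed-/- (7.60 to 7.78), 1361-fold in Ezh2-/- (1161 to 1605) and 16.2-fold in Jarid2-/- (15.7 to 16.8). The 6 strands of the Rian group downstream were 6.46-fold (6.23 to 6.71), 556-fold (391 to 819) and 7.77-fold lower (7.15 to 8.45), and the 75 of the Mirg group 6.20-fold (6.18 to 6.23), 964-fold (910.2 to 1021) and 17.5-fold lower (17.3 to 17.8). The anti-Rtl1 sum at 21.7-fold in Jarid2-/- thus lay above all 3 neighbouring groups, while in Eed-/- and Ezh2-/- it lay between the Gtl2 and Mirg groups. This placing rested on miR-127-3p too: without it the sum was 5.73-fold lower in Eed-/- (5.65 to 5.81), 960.0-fold in Ezh2-/- (802 to 1160.0) and 17.1-fold in Jarid2-/- (16.3 to 18.0), below all 3 groups in Eed-/- and below Mirg in Ezh2-/- and Jarid2-/- by less than counting error. Among the 101 tested plus-strand loci of the locus, miR-127-3p had the 4th, 3rd and 4th lowest log2 ratio of CPM + 1 in Eed-/-, Ezh2-/- and Jarid2-/-. The Ezh2-/- rank depends on the added 1 CPM and so on abundance. Without it, miR-433-3p (-11.71, 5 counts) and miR-127-5p (-11.27, 12 counts) lay below miR-127-3p (-10.65, 39 counts) in Ezh2-/-. The counting intervals of these ratios overlapped, so their order is not settled. MiR-136-5p had the 12th highest log2 ratio of CPM + 1 in Eed-/- but the 5th lowest in Jarid2-/-.

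**Figure D5:**
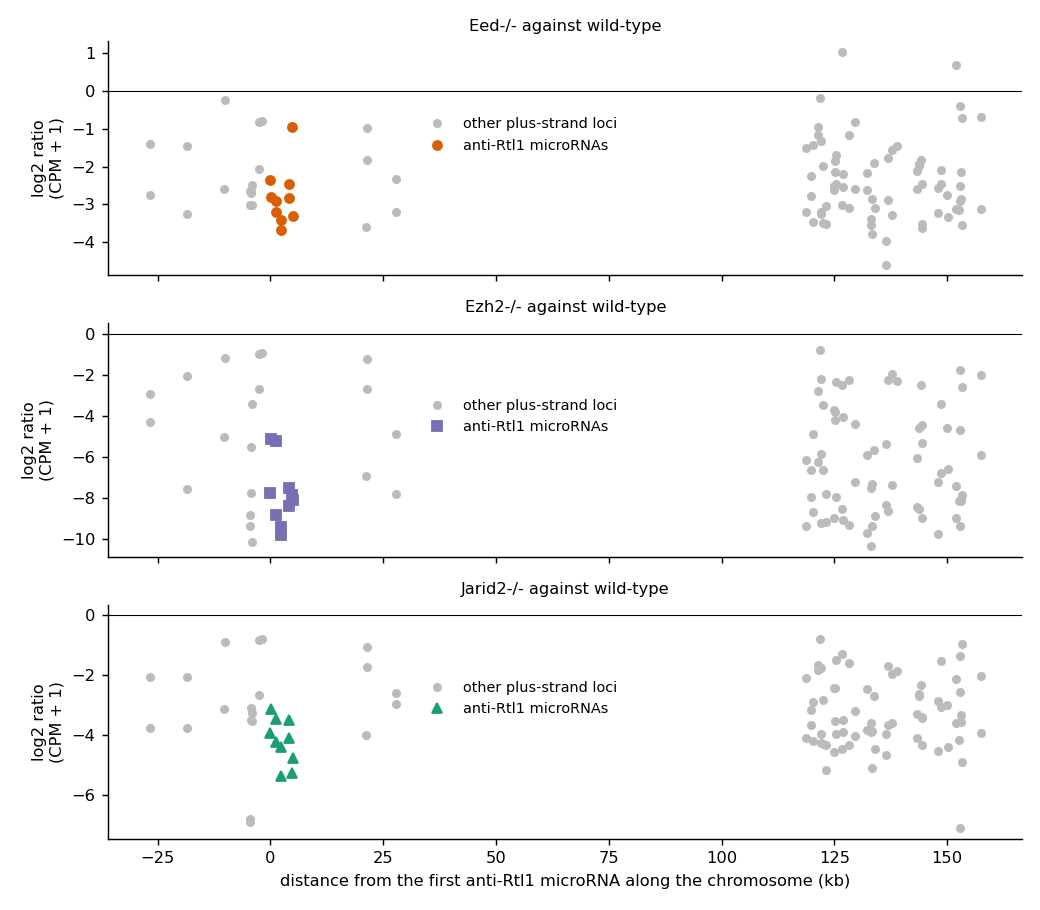
Log2 ratio of CPM + 1 to wild-type for each tested plus-strand microRNA of the locus, by distance in kb from the first anti-Rtl1 microRNA, with 1 panel per mutant. The anti-Rtl1 microRNAs lie within the range of the other loci in all 3 panels, and in the Eed-/- panel miR-136-5p (-0.96) stands above the other 9.

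The nearest plus-strand strands on either side had few counts. Upstream, 1789 bp from miR-431-5p, miR-3070b-3p had 5 counts in Eed-/-, 0 in Ezh2-/- and 1 in Jarid2-/-, against 6 in wild-type. Downstream, 16133 bp from miR-136-3p, miR-341-5p had 2, 0 and 0 counts, against 3 in wild-type. The other arm of that hairpin, miR-341-3p, had 509 counts in Eed-/-, 10 in Ezh2-/- and 76 in Jarid2-/-, against 3766 in wild-type. MiR-432, looked up after its values were seen and annotated at chr12:110833216-110833238 between miR-434 and miR-136, had 0 counts in all 4 columns. On the minus strand, the reverse complement of the 62-base miR-136 hairpin is contained in the 80-base hairpin of miR-3071. MiR-3071-3p had 2 counts in Eed-/-, 2 in Ezh2-/- and 0 in Jarid2-/-, against 0 in wild-type, and miR-3071-5p had 0 counts in all columns. The counts at miR-136, up to 10225 for 1 arm, thus fell on the plus-strand annotation.

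The 5 microRNAs whose pattern was most like that of the summed members were all of the Mirg group. That group holds 75 of the other 99 plus-strand loci of the locus. Likeness was the Euclidean distance between the 3 log2 ratios to wild-type (of CPM + 1), over 622 loci with at least 100 wild-type counts. The 5 nearest were miR-154-3p (distance 0.44), miR-495-3p (0.63), miR-376c-3p (0.68), miR-379-5p (0.72) and miR-323-3p (0.77). MiR-665-3p of the group near Gtl2 ranked 8th (0.96). For miR-154-3p the log2 ratios were -3.24 in Eed-/-, -9.72 in Ezh2-/- and -4.53 in Jarid2-/-, beside -2.83, -9.86 and -4.44 for the summed members. The 58 nearest loci all lay inside the locus, and the first from elsewhere was miR-211-5p at a distance of 5.47. The members themselves lay 0.74 (miR-127-5p) to 4.93 (miR-431-3p) from their own sum. These distances also depend on abundance, because the added 1 CPM shrinks the ratios of scarce microRNAs. In Ezh2-/- the log2 ratio of miR-431-3p was -5.10 with it and -9.16 without it, beside -9.86 and -10.13 for the summed members.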

How the data were processed

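Small RNA of mouse ES cells was sequenced on a SOLiD instrument, per the labels' protocols. Cutadapt, Bowtie and the build mm9 appear in the submitters' processing notes; how reads with several matches were handled is not given in the sources used here. Per the file headers, the authors gave each locus of miRBase release 20 a read count and a reads-per-million (RPM) value. The deposited counts were 9.66 to 15.8% of the RPM denominators. Columns were assigned by name: HEED to Eed-/-, EZH2 to Ezh2-/-, JUMONJI (an older name of Jarid2) to Jarid2-/- and the parental line CJ7 to wild-type, the least direct assignment.

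The counts were scaled to each column's total with Python 3.11.15 and scipy 1.17.1. Ratios have exact conditional binomial intervals and shares Clopper-Pearson intervals; odds ratios of arms have Wald intervals or, under 300 counts, exact ones. Arm shifts over all hairpins used 0.5 added counts. Factors came from TMM in edgeR 4.0.16 and the median ratio in DESeq2 1.42.0. The planned tests across replicates were not run, with 1 column per genotype. The ratio and call steps were tested on simulated data. The members and lists were chosen with earlier results of these data known, and the ranking of arm shifts after the values were seen. Named besides the members were the 5 loci most like their sum, the nearest plus-strand neighbours and minus-strand loci of the locus. Chromatin and messenger RNA samples were not analysed here, so the mutated genes themselves were not checked.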

Additional observations from a re-analysis of the deposited data

Results flagged for a closer look

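The arm ratio of miR-136 stood on opposite sides of wild-type in 2 mutants. In Eed-/- its log2 odds ratio of 5p to 3p against wild-type was 2.39, with 8574 counts of the 5p arm and 1789 of the 3p arm, against 9380 and 10225 in wild-type. In Jarid2-/- the log2 odds ratio was -0.57, with 78 and 126 counts. Arm shifts were common: by size that of miR-136 ranked 46th of 274 hairpins in Eed-/- and 159th of 224 in Jarid2-/-. In Jarid2-/- it was below the median size of 1.01. With 1 column per genotype the difference in this arm ratio between the mutants was not tested.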

How the results depend on the processing

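No paired analysis was possible because each genotype has 1 column without a replicate number, and leaving out replicates or testing with DESeq2 was not possible for the same reason. The members stayed below wild-type in 180 of 180 recomputed log2 ratios (4 scalings and 2 pseudocounts). A pseudocount cannot change the sign of a ratio, so only the scalings could have altered this. In size, 76 of the 180 moved beyond counting error. The number called lower differed from 9, 10 and 10 only with TMM and median-ratio scaling in Eed-/- (10). With arms summed per hairpin, 5 of 5 hairpins were lower in each mutant. The summed log2 ratios for Eed-/-, Ezh2-/- and Jarid2-/- against wild-type were -2.84, -10.13 and -4.44, and those of Ezh2-/- against Eed-/-, Jarid2-/- against Eed-/- and Jarid2-/- against Ezh2-/- were -7.29, -1.61 and 5.69. In the same order of comparisons, those outside the counting interval were -2.96, -9.40, -6.44, -1.51 and 4.93 with TMM (Jarid2-/- against wild-type lay inside). They were -3.06, -9.61, -4.56, -6.56, -1.505 and 5.05 with median-ratio scaling, and -2.12, -9.69, -3.94, -7.56 and -1.82 with the RPM denominators (Jarid2-/- against Ezh2-/- lay inside). Scaled on loci outside the locus and the miR-290 cluster, Jarid2-/- gave -4.59 against wild-type and -1.77 against Eed-/-. Without miR-127-3p, Eed-/- gave -2.52 and Jarid2-/- -4.10 against wild-type. Without miR-136-5p, a choice made after the data were seen, Eed-/- gave -3.17 against wild-type and Jarid2-/- -1.22 against Eed-/-. The summed log2 ratio minus that of the other loci of the locus was -0.16 in Eed-/-, -0.17 in Ezh2-/- and -0.35 in Jarid2-/-. Without miR-127-3p, also chosen after the data were seen, it was 0.16, 0.058 and -0.0065, and without miR-136-5p it was -0.49 in Eed-/-. The cause of these shifts was not tested. Shares of arms were the same from the RPM values.

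Scaling also moved the median log2 ratio of all tested loci, which lay between -0.06 and 0.46 in Eed-/-, between -0.44 and 0.09 in Ezh2-/-, and between -0.27 and 0.20 in Jarid2-/-. Lower against higher loci numbered 164 and 192 in Eed-/- (194 and 130 with median-ratio, 106 and 350 with RPM denominators), 245 and 49 in Ezh2-/- (163 and 144 with TMM, 189 and 110 with median-ratio, 185 and 93 with RPM denominators), and 217 and 155 in Jarid2-/- (176 and 253 with RPM denominators). The column of Jarid2-/- is the shallowest, and in Ezh2-/- the low level of the members leaves 1 to 39 counts for each.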

Other observations

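Opposite the members, the only annotated minus-strand microRNA was miR-3071, across from miR-136, with at most 2 counts per arm and column. Rtl1 transcripts from that strand were not analysed here. MiR-3544-5p, opposite miR-337 and 4585 bp upstream of miR-431, was chosen after its values were seen. It had 49 counts in Eed-/- (1.16 CPM), 11 in Ezh2-/- (0.343 CPM) and 1 in Jarid2-/-, against 1 in wild-type. Farther downstream, miR-299b-5p, annotated on the minus strand, had more: 2107 counts in Eed-/-, 16 in Ezh2-/- and 269 in Jarid2-/-, against 13665 in wild-type. Its other arm, miR-299b-3p, had 327, 0 and 12 counts in the mutants in that order, against 81 in wild-type. The plus-strand miR-299a-5p of the same stretch had levels near those of miR-299b-5p. They were 55.2, 0.530, 33.6 and 625 CPM in Eed-/-, Ezh2-/-, Jarid2-/- and wild-type, beside 49.8, 0.499, 31.7 and 574 CPM. How reads with several matches were handled is not given, and which strand the miR-299b counts came from was not tested.

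The arm with more counts in wild-type began with U in miR-431 and miR-127, with A in miR-433 and miR-136 and with G in miR-434. Over the 10 members the first base was U in 4, A in 3, C in 2 and G in 1.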
